A study of Mus musculus with 6 samples.

Results

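Semaphorins, plexins, neuropilins, ephrins and Eph receptors are the ligands and receptors of the contact and guidance signals described here. Their genes were taken from the expression table by symbol: class 3 to class 7 semaphorins, plexins A to D, the neuropilins Nrp1 and Nrp2, the A and B ephrins, and the A and B Eph receptors. The symbols picked out 53 of 23364 genes, of which 28 encode ligands (20 semaphorins and 8 ephrins) and 25 encode receptors (9 plexins, 2 neuropilins and 14 Eph receptors). The osteoblast group was 3 RNA-seq libraries of osteoblasts, the cells that lay down bone, from the calvaria (the skull roof) of C57BL/6 mice at postnatal day 1. These cells were released with Liberase TM, sorted for green fluorescent protein (GFP) and labelled Sp7 positive; Sp7, also called Osterix, is a transcription factor that osteoblasts need. They were set against 3 libraries of wild-type chondrocytes, the cells of cartilage, from the rib cartilage of C57BL/6 mice of the same age, released with Pronase and Collagenase D and not described as sorted. Cell type, skeletal site, sorting, genotype and enzyme therefore changed together, and their effects on any value cannot be told apart. The labels do not say which promoter or allele drove the GFP, nor whether the libraries of a group came from separate animals, so the p-values measure the spread between these libraries, which may be technical.

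Semaphorins are secreted or membrane-bound proteins that act through plexins, receptors whose cytoplasmic part switches off small GTPases and so changes adhesion and the cytoskeleton. Most secreted class 3 semaphorins bind a neuropilin, which holds the ligand in a complex with a plexin that does the signalling. Ephrins stay on the cell surface, the A ephrins by a lipid anchor and the B ephrins by a membrane-spanning domain, and bind Eph receptor tyrosine kinases on a neighbouring cell, so that both cells can receive a signal. In the mouse skeleton these families are known from exchanges between osteoblasts, osteoclasts, nerves and vessels, and from the placing of skull sutures.

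Levels are RPKM, reads scaled to transcript length and library size, as deposited and summed over the transcripts of a gene. Differences are osteoblast minus chondrocyte means of log2(RPKM + 1), a scale that shrinks the differences of weakly expressed genes, and folds are ratios of mean RPKM. From the steps in the lowest values, 1 RPKM in a transcript of 2 kb was estimated to stand for 54.0 to 71.9 reads, depending on the library. The osteoblast libraries were more alike (Pearson r of 0.992 to 0.994 across tested genes on the log2 scale) than the chondrocyte libraries (0.961 to 0.986). All 8 osteoblast markers examined were higher in the osteoblast libraries and all 8 chondrocyte markers were lower. Summed osteoblast marker RPKM was 31587, 34089 and 32043 in the osteoblast libraries, against 4673, 4262 and 14353 in chondrocyte replicates 1, 2 and 3. The excess of chondrocyte replicate 3 lay in the collagen genes Col1a1 and Col1a2, since the other 6 osteoblast markers summed to 1346, 1329 and 1669 RPKM in the osteoblast libraries, against 14.1, 18.1 and 13.9 RPKM in chondrocyte replicates 1, 2 and 3. Chondrocyte replicate 3 therefore stood apart in type I collagen and not in the other osteoblast markers, and it was also the highest chondrocyte library for 31 of the 42 members that could be tested (73.8%, against 46.9% of all tested genes). Chondrocyte replicate 2 was the lowest of its group for 37 of the 42 (88.1%, against 67.6% of all tested genes). The part of these 2 libraries' make-up in the member values was not tested, but counts without each of them are given beside the results they move.

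Most members with measurable expression were higher in osteoblasts. Of the 53, 42 reached 1 RPKM in at least 3 of the 6 libraries and were tested; 31 were higher in osteoblasts at a limma Benjamini-Hochberg adjusted p under 0.05, 4 were lower, and 7 passed in neither direction. The background was itself tilted: of the 11218 genes tested, 55.5% were called higher and 13.5% lower, against 73.8% and 9.52% of the tested members. Calls in either direction came to 35 of the 42, where the background was 69.0%. The median log2 difference was 1.19 over the 42 members and 0.43 over all tested genes. The 4 lower members were the ligands Sema3c, Sema3e and Efna1 and the receptor Plxnb1. The groups did not overlap for the same 35 genes, with the osteoblast libraries above for 31 members (60.4% of all tested genes) and the chondrocyte libraries above for 4 (15.3%). Of the 31 higher members, 10 met the expression filter through the osteoblast libraries alone: Efna3, Efnb3, Epha7, Plxna2, Plxna4, Plxnc1, Sema3a, Sema4d, Sema4f and Sema7a. Sema3e met it through the chondrocyte libraries alone, so the direction of those 11 was built in by the filter, and their p-values are given as a description. Of the other 31 tested members, 21 were higher, 3 were lower and 7 were not called; of the 10280 genes that reached 1 RPKM in at least 1 library of each group, 54.0% were higher and 12.2% lower. With a log2 difference of at least 1 in size, 22 members were called higher and 3 lower, against 19.5% and 5.35% of all tested genes. With no filter all 53 entered, and 27 were higher and 3 lower, against 21.7% and 4.93% of all 23364 genes. Of these 27, 24 were among the 31, and the other 3 (Epha5, Epha8 and Plxnb3) were below the filter. The calls lost without the filter were 8: Efnb2, Epha2, Plxnd1, Sema3b, Sema3c, Sema4g, Sema6c and Sema6d, at limma adjusted p of 0.0533 to 0.174. Without chondrocyte replicate 3 the counts were 35 higher, 30 of them among the 31, and 4 lower, where 55.7% and 12.2% of all tested genes were called. Without chondrocyte replicate 2 they were 30 and 4, where 56.3% and 16.9% were called.

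The tilt of the background depends on how the libraries are scaled to each other. Median-of-ratios scaling, which centres the typical gene on no change, lowered the median log2 difference of all tested genes by 0.42. It turned the split of all genes into 30.4% higher and 30.9% lower, so that 49.6% of the calls were higher in place of 80.5%. Under the same scaling 26 members were higher and 5 were lower, and the members' median log2 difference was 0.87. Over all alternatives, 23 of the 31 higher members and 3 of the 4 lower ones (Efna1, Plxnb1 and Sema3e) kept their call in every alternative in which they were tested. Of these, Efna3, Efnb3, Epha7, Plxna2, Plxnc1, Sema3a, Sema4d, Sema4f, Sema7a and Sema3e met the expression filter through 1 group alone. Their direction was built in by the filter. No share of all called genes is set beside these counts.

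**Figure D1:**
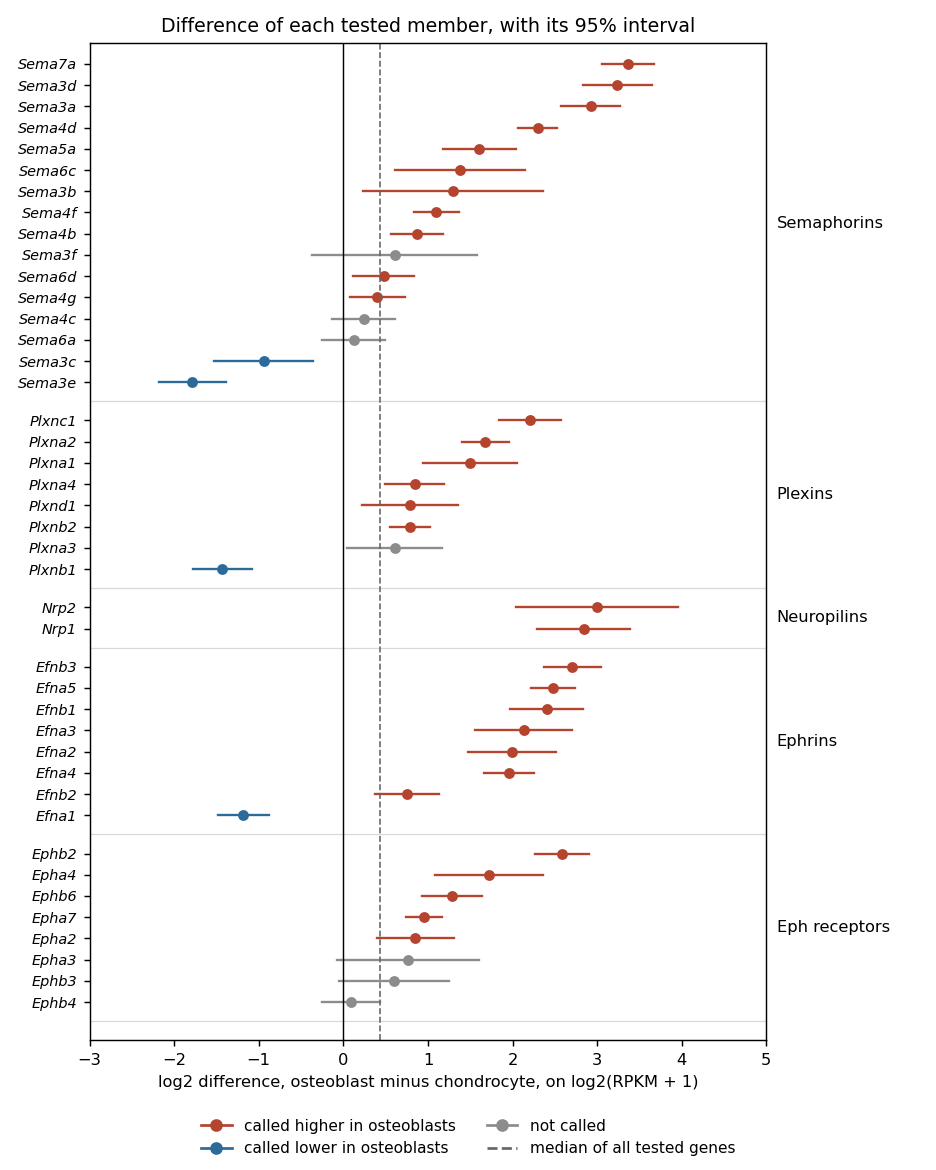
Log2 difference of each tested member, osteoblast minus chondrocyte in log2(RPKM + 1), with its 95% interval from limma (n = 3 libraries per group), grouped by class. Of the 42 members, 31 lay above 0 and were called, 4 lay below 0 and were called, and the 7 uncalled members are grey; the dashed line is the median of all tested genes, 0.43; Sema4c, Sema6a and Ephb4, close to 0, changed sign under median-of-ratios scaling.

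The semaphorins were the largest ligand class, with 16 of 20 genes tested, of which 11 were higher in osteoblasts (68.8%, against 55.5% of all tested genes), 2 were lower and 3 were not called. These counts include genes whose direction was built in by the filter: Sema3a, Sema4d, Sema4f and Sema7a among the higher and Sema3e among the lower. The summed semaphorin level was 132 ± 3.58 RPKM in osteoblasts and 72.4 ± 25.4 RPKM in chondrocytes (mean ± SD, n = 3 each). The secreted class 3 genes went in both directions, whereas every tested gene of classes 4, 5 and 7 had a higher mean in osteoblasts, except that Sema4c turned under median-of-ratios and quantile scaling.

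Sema3a, the founding class 3 repellent, which in mice also restrains osteoclast formation and favours bone formation, had 8.91, 8.46 and 9.03 RPKM in osteoblasts, against 0.216, 0.106 and 0.598 RPKM in chondrocytes. Every osteoblast library was above every chondrocyte library, and the mean was 28.7-fold higher in osteoblasts (log2 difference 2.92, SE 0.15, 95% interval 2.58 to 3.27, limma adjusted p = 6.22e-06). Sema3d, which steers axons and endothelial cells, measured 18.7, 16.1 and 19.8 RPKM in osteoblasts and 0.656, 1.58 and 0.951 RPKM in chondrocytes. That was a 17.1-fold higher mean, with all 3 osteoblast libraries far above the chondrocyte range (log2 difference 3.24, SE 0.17, limma adjusted p = 7.83e-06). In the RefSeq gene table Sema3d and Sema3a are next to each other on chromosome 5, with 0 protein-coding genes between them.

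Further along the same chromosome lie the class 3 genes that were higher in cartilage. Sema3e, which signals through Plxnd1 without a neuropilin, was at 0.416, 0.268 and 0.361 RPKM in osteoblasts, against 3.74, 2.64 and 4.78 RPKM in chondrocytes. The osteoblast libraries were all below the chondrocyte ones, and the chondrocyte mean was 10.7 times the osteoblast mean (log2 difference -1.78, SE 0.17, limma adjusted p = 9.50e-05). Sema3c, a ligand of both neuropilins known from heart outflow tract patterning, had 16.5, 17.2 and 11.03 RPKM in osteoblasts and 27.8, 21.7 and 40.4 RPKM in chondrocytes. The groups were separate but less far apart, with a chondrocyte mean 2.01 times the osteoblast mean (log2 difference -0.94, 95% interval -1.52 to -0.36, limma adjusted p = 0.0115), and Sema3c alone made up 41.4% of the summed semaphorin RPKM of chondrocytes, against 11.3% in osteoblasts. The RefSeq order places 3 protein-coding genes between Sema3a and Sema3e and 15 between Sema3e and Sema3c.

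Sema3b, the most abundant semaphorin of osteoblasts, had 25.9, 29.9 and 24.3 RPKM there, against 14.7, 3.96 and 17.3 RPKM in chondrocytes. The osteoblast libraries were all above, but chondrocyte replicate 2 was far below the other two, and the log2 difference of 1.29 had a wide interval of 0.23 to 2.36 (limma adjusted p = 0.0357). This call was lost when any single osteoblast library was left out (limma adjusted p of 0.0734, 0.0808 and 0.0973), and with all libraries under each of the 3 scalings (0.0574 to 0.131). Sema3f, a ligand with a preference for Nrp2, averaged 4.52 RPKM in osteoblasts and 3.19 ± 2.83 RPKM in chondrocytes; the libraries overlapped, since chondrocyte replicate 3 at 6.40 RPKM was above every osteoblast library (log2 difference 0.61, limma adjusted p = 0.224). Without that library Sema3f was called higher in osteoblasts, at a log2 difference of 1.12 (limma adjusted p = 0.00127).

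Among the membrane-bound semaphorins, Sema7a showed the widest gap of the semaphorins. This lipid-anchored protein binds Plxnc1 and integrins, and it had 12.7, 10.3 and 14.2 RPKM in osteoblasts, against 0.254, 0.236 and 0.382 RPKM in chondrocytes. The osteoblast mean was 42.6-fold higher (log2 difference 3.37, SE 0.13, 95% interval 3.06 to 3.68, limma adjusted p = 2.11e-06). Sema4d, a ligand of Plxnb1 that in mice was found on osteoclasts as an inhibitor of bone formation, had 5.14, 5.10 and 5.88 RPKM in osteoblasts and 0.278, 0.264 and 0.350 RPKM in chondrocytes. Its mean was 18.1-fold higher in osteoblasts, with narrow spread in both groups (log2 difference 2.30, SE 0.10, limma adjusted p = 3.25e-06).

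Sema4d, Sema7a and the receptor Plxnc1 are also made by blood cells, so levels of other cells' genes are given beside them. The myeloid list summed to between 20.8 and 24.1 RPKM in osteoblast libraries and between 5.76 and 15.3 RPKM in chondrocyte libraries. Of its 7 tested genes, 5 were higher in osteoblasts and 1 lower (71.4% and 14.3%, against 55.5% and 13.5% of all tested genes). Its defining markers Ptprc and Csf1r averaged 0.304 and 3.93 RPKM in osteoblasts and 0.0814 and 0.968 RPKM in chondrocytes. Of the 5 higher myeloid genes, Cd68 and Emr1 met the expression filter through the osteoblast libraries alone. The osteoclast list, led by Ctsk, summed to between 203 and 217 RPKM in osteoblast libraries and between 47.0 and 165 RPKM in chondrocyte libraries. Its 3 tested genes, Ctsk, Acp5 and Mmp9, were all higher in osteoblasts, and Mmp9 averaged 4.19 RPKM in osteoblasts and 0.109 RPKM in chondrocytes. Mmp9 met the expression filter through the osteoblast libraries alone. The other osteoclast markers were too low to test. Ocstamp, Atp6v0d2 and Oscar averaged 0.107, 0.108 and 0.0862 RPKM in osteoblasts, and 0.0001, 0.00405 and 0.0157 RPKM in chondrocytes. Dcstamp and Calcr were at the floor of the table in all 3 osteoblast libraries. Of the 8 osteoclast genes, 6 had every osteoblast library above every chondrocyte library, and 2 overlapped. Of all 23364 genes, tested or not, 8618 had every osteoblast library above, 2499 the reverse, and 12247 overlapped. The lymphoid list summed to no more than 0.52 RPKM in osteoblast libraries and 0.16 RPKM in chondrocyte libraries. In bulk RNA, fewer cells of a type and less RNA per cell cannot be told apart, and the part of myeloid cells and osteoclasts in these values was not tested.

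Of the other class 4 to 6 genes, Sema5a, a transmembrane semaphorin with thrombospondin repeats, had 5.71, 4.203 and 6.48 RPKM in osteoblasts and 1.19, 0.706 and 1.46 RPKM in chondrocytes, a 4.88-fold higher mean (log2 difference 1.61, SE 0.19, limma adjusted p = 0.000233). Sema6c had 13.3, 14.3 and 10.9 RPKM in osteoblasts, against 4.66, 2.15 and 7.41 RPKM in chondrocytes, with no overlap although the chondrocyte libraries were widely spread (log2 difference 1.37, SE 0.33, limma adjusted p = 0.00733). Sema4f was low in both, at 1.41, 1.73 and 1.08 RPKM in osteoblasts and 0.1155, 0.1169 and 0.1165 RPKM in chondrocytes (log2 difference 1.10, SE 0.11, limma adjusted p = 0.000139). All 3 genes were thus above the chondrocyte range in every osteoblast library. Sema4b (2.95 RPKM in osteoblasts and 1.17 RPKM in chondrocytes), Sema4g (2.22 and 1.46 RPKM) and Sema6d (1.79 and 1.03 RPKM) were higher by less, with log2 differences of 0.88, 0.40 and 0.48. The Sema4g and Sema6d calls were lost when any osteoblast library was left out and under each of the 3 scalings; Sema4g was also lost without chondrocyte replicate 2 (limma adjusted p = 0.0531) or 3 (limma adjusted p = 0.0921). Sema4c, a Plxnb2 ligand, and Sema6a, which binds Plxna2 and Plxna4, were close to equal: Sema4c averaged 8.12 RPKM in osteoblasts and 6.80 RPKM in chondrocytes, and Sema6a averaged 4.53 and 4.10 RPKM. Their log2 differences of 0.24 (95% interval -0.13 to 0.62) and 0.12 (-0.25 to 0.50) turned negative under median-of-ratios and quantile scaling, and that of Sema6a also with equal totals or without chondrocyte replicate 2. Without chondrocyte replicate 3 Sema4c was called higher in osteoblasts, at 0.38 (limma adjusted p = 0.0482).

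**Figure D2:**
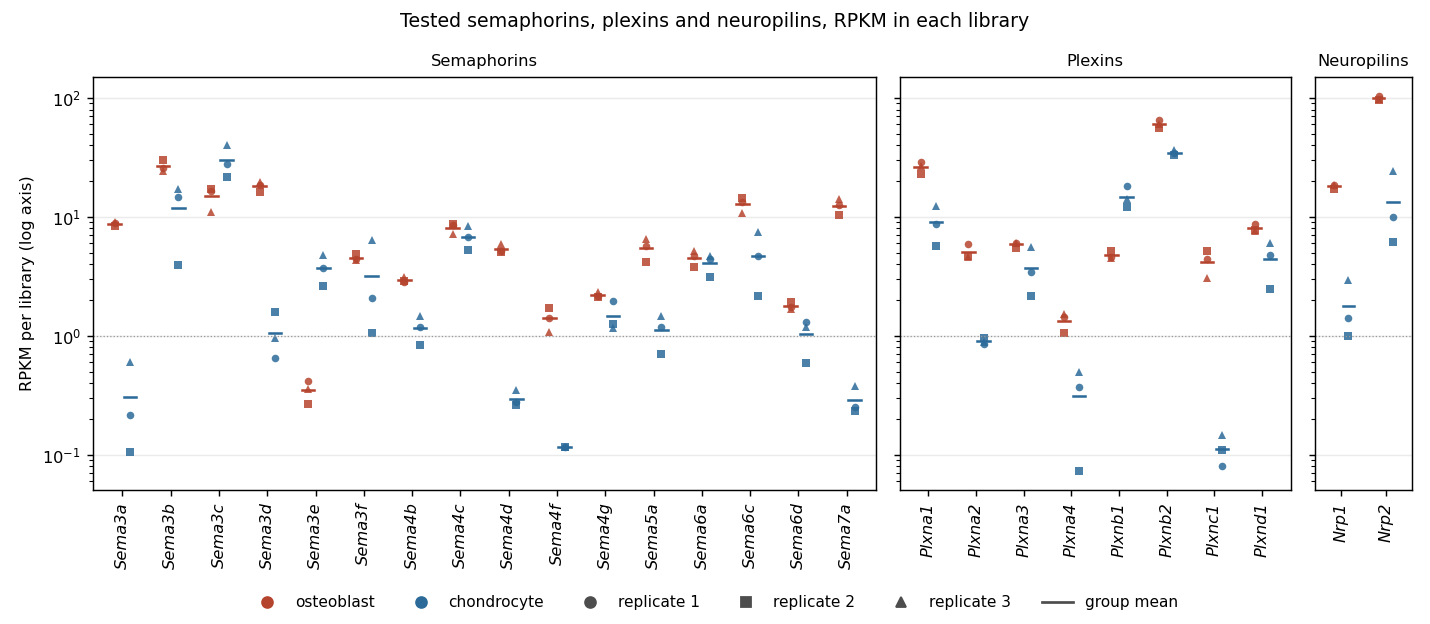
RPKM of semaphorins, neuropilins and plexins in each library on a log axis, osteoblast libraries left of chondrocyte libraries for each gene. Sema7a, Plxnc1 and Sema3a have the highest ratios, 42.6, 37.6 and 28.7 in favour of osteoblasts, whereas Sema3c, Sema3e and Plxnb1 are lower in osteoblasts.

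Both neuropilins were higher in osteoblasts. Nrp2, which also binds lymphatic vascular growth factors, was the most abundant member in osteoblasts, with 104, 95.6 and 98.4 RPKM there and 9.90, 6.16 and 24.3 RPKM in chondrocytes. The mean was 7.39-fold higher in osteoblasts, and chondrocyte replicate 3 was the highest of its group but far below every osteoblast library (log2 difference 3.0, SE 0.41, limma adjusted p = 0.000524). Nrp1, the main Sema3a-binding subunit and also a co-receptor for vascular endothelial growth factor, had 18.5, 17.3 and 18.6 RPKM in osteoblasts, against 1.42, 1.00 and 2.97 RPKM in chondrocytes. This was a 10.1-fold higher mean with no overlap (log2 difference 2.84, SE 0.23, limma adjusted p = 5.23e-05). Nrp2 supplied 84.5% of the summed neuropilin RPKM in osteoblasts and 88.2% in chondrocytes, so the balance between both receptors was similar while the sum was 118 ± 4.92 RPKM in osteoblasts and 15.2 ± 10.6 RPKM in chondrocytes (mean ± SD, n = 3 each). Both genes are also strong in endothelial cells, and the endothelial list had a sum of 11.05 to 14.2 RPKM in osteoblast libraries and 28.6 to 35.4 RPKM in chondrocyte libraries. Most of this sum was Erg, also a gene of joint cartilage, at 8.73 RPKM in osteoblasts, against 24.5 RPKM in chondrocytes. Without Erg the sums overlapped, at 3.56, 5.97 and 2.53 RPKM in osteoblast libraries and 5.19, 5.22 and 9.51 RPKM in chondrocyte libraries, and 7 of the 12 genes overlapped between the groups. The defining markers Cdh5 and Pecam1 averaged 0.452 and 0.366 RPKM in osteoblasts and 1.06 and 1.3996 RPKM in chondrocytes.

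The plexins are the signalling receptors of the semaphorins, and 6 of 8 tested were higher in osteoblasts (75.0%, against 55.5% of all tested genes), 1 was lower and 1 was not called. Plxna2, Plxna4 and Plxnc1 met the expression filter through the osteoblast libraries alone, so their direction was built in. Of the others, Plxna1, Plxnb2 and Plxnd1 were higher, Plxnb1 was lower and Plxna3 was not called. Of all genes that reached 1 RPKM in both groups, 54.0% were higher and 12.2% lower. Plxnb2 was the most abundant plexin of both cell types, with 65.5, 56.4 and 60.0 RPKM in osteoblasts and 34.4, 33.0 and 36.6 RPKM in chondrocytes. It was 1.75-fold higher in osteoblasts (log2 difference 0.79, SE 0.10, limma adjusted p = 0.000383) and held 52.2% of summed plexin RPKM in osteoblasts and 51.0% in chondrocytes. Its close relative Plxnb1, the Sema4d receptor, went the opposite way, with 4.64, 5.19 and 4.56 RPKM in osteoblasts, against 18.1, 12.1 and 14.1 RPKM in chondrocytes. No libraries overlapped, and the chondrocyte mean was 3.08 times the osteoblast mean (log2 difference -1.43, SE 0.15, limma adjusted p = 0.000142). Plxnb1 thereby accounted for 4.12% of summed plexin RPKM in osteoblasts and 21.8% in chondrocytes.

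Plxnc1, the Sema7a receptor, had 4.41, 5.14 and 3.06 RPKM in osteoblasts and 0.0803, 0.110 and 0.146 RPKM in chondrocytes. Its mean was 37.6-fold higher in osteoblasts (log2 difference 2.21, SE 0.16, limma adjusted p = 2.61e-05). The A plexins, partners of the neuropilins, summed to 38.6 RPKM in osteoblasts and 13.9 RPKM in chondrocytes. Plxna1 had 28.8, 22.9 and 27.0 RPKM in osteoblasts, against 8.79, 5.74 and 12.4 RPKM in chondrocytes (log2 difference 1.497, SE 0.24, limma adjusted p = 0.00113). Plxna2 had 5.97, 4.73 and 4.63 RPKM in osteoblasts and 0.848, 0.968 and 0.885 RPKM in chondrocytes, a 5.67-fold higher mean (log2 difference 1.68, SE 0.12, limma adjusted p = 2.49e-05). Neither of these A plexins overlapped between the groups. Plxna4 was low, at 1.35 RPKM in osteoblasts, against 0.315 RPKM in chondrocytes, with a log2 difference of 0.84 that was lost under quantile scaling. Plxna3 averaged 5.89 RPKM in osteoblasts and 3.73 RPKM in chondrocytes and just missed the call (log2 difference 0.61, 95% interval 0.04 to 1.17, limma adjusted p = 0.0561); leaving out chondrocyte replicate 3 gave a log2 difference of 0.87 (limma adjusted p = 0.0026). Plxnd1, the Sema3e receptor, averaged 8.02 ± 0.584 RPKM in osteoblasts and 4.43 ± 1.80 RPKM in chondrocytes (mean ± SD, n = 3 each; log2 difference 0.79, limma adjusted p = 0.0210), a call lost when any osteoblast library was left out (limma adjusted p of 0.0511, 0.0538 and 0.0695).

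Set side by side, ligands and receptors known to pair did not all move together. Sema7a and its receptor Plxnc1 were 42.6-fold and 37.6-fold higher in osteoblasts, both among the genes whose direction the filter fixed. Sema3a and Sema3d were higher in the cells that also held more Nrp1, Nrp2, Plxna1 and Plxna2. Sema3c, a ligand of both neuropilins, was lower in those cells (log2 difference -0.94). The filter also fixed the direction of Sema3a and Plxna2, and of Sema4d and Sema3e in the pairs that follow. Sema4d and Plxnb1 differed in opposite directions, with ligand higher and receptor lower in osteoblasts. Sema3e and Plxnd1 also differed in opposite directions, here with the ligand lower and the receptor higher in osteoblasts, though the Plxnd1 call was lost without any 1 osteoblast library and, with all 6 libraries, under median-of-ratios and quantile scaling (log2 differences of 0.36 and 0.39, limma adjusted p of 0.164 and 0.115). These pairings come from general knowledge of the proteins, and binding was not measured.

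All 8 ephrins were tested, of which 7 were higher in osteoblasts (87.5%, against 55.5% of all tested genes) and only Efna1 was lower, counts that were the same under every scaling tried. The 7 include Efna3 and Efnb3, whose direction was built in by the filter. The summed ephrin level was 101 ± 4.76 RPKM in osteoblasts and 38.9 ± 7.54 RPKM in chondrocytes (mean ± SD, n = 3 each). The B ephrins made up more of this gap, with sums of 52.6 RPKM in osteoblasts and 10.6 RPKM in chondrocytes, while the A ephrins summed to 48.8 and 28.3 RPKM.

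Efna1, the usual ligand of Epha2, had 9.07, 8.79 and 10.3 RPKM in osteoblasts, against 25.6, 18.9 and 23.5 RPKM in chondrocytes. All osteoblast libraries were below all chondrocyte libraries, and the chondrocyte mean was 2.41 times the osteoblast mean (log2 difference -1.18, SE 0.13, limma adjusted p = 0.000188). Efna1 was 9.27% of the summed ephrin RPKM of osteoblasts and 58.4% of that of chondrocytes. Its neighbours on chromosome 3, Efna3 and Efna4, with 0 protein-coding genes between each and the next in the RefSeq gene table, differed the other way. Efna3, a broad EphA ligand, had 6.04, 3.48 and 6.37 RPKM in osteoblasts and 0.315, 0.145 and 0.840 RPKM in chondrocytes, a 12.2-fold higher mean (log2 difference 2.13, SE 0.24, limma adjusted p = 0.000228). Efna4, whose human counterpart is mutated in some families with early fusion of the skull sutures, had 7.15, 6.20 and 5.77 RPKM in osteoblasts and 1.06, 0.669 and 0.976 RPKM in chondrocytes. This 7.06-fold higher mean also came without overlap (log2 difference 1.96, SE 0.13, limma adjusted p = 1.74e-05).

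Since these 3 neighbours differed in direction, the 250 bases before a RefSeq transcription start of each are shown, from the table for GRCm38.p6 and not the build mm9 of the expression data. All lie on the minus strand and are written 5′ to 3′ along the gene, at chr3:89280952-89281201 for Efna1, chr3:89322940-89323189 for Efna3 and chr3:89338029-89338278 for Efna4. Capitals mark the homeodomain core TAATTA, searched because the series concerns homeodomain factors of the Dlx family, and the GC box GGGCGG, which on the other strand reads CCGCCC; the marked matches do not overlap.
Efna1 promoter: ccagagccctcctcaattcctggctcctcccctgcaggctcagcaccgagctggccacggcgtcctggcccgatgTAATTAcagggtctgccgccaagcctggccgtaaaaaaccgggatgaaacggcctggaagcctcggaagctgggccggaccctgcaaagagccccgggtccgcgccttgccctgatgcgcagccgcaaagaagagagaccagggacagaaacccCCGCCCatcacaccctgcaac
Efna3 promoter: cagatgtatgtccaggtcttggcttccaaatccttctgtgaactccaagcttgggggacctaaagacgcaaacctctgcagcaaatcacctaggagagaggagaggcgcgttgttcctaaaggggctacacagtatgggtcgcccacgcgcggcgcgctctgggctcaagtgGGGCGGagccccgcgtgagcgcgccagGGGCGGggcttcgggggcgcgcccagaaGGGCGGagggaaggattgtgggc
Efna4 promoter: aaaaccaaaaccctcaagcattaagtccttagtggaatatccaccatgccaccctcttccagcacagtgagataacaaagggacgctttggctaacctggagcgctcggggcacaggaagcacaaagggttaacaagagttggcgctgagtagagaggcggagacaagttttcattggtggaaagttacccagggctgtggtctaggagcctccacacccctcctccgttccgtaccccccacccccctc
The Efna1 window held 1 TAATTA and 1 GC box, the Efna3 window 0 and 3, and the Efna4 window 0 and 0. A second RefSeq start of Efna1, at chr3:89279646-89279895 and not shown, held 0 TAATTA and 2 GC boxes, and the second start of Efna3 held 0 and 3. Of all 32851 windows of this length in the RefSeq table, 4.84% held TAATTA and 32.7% held GGGCGG on either strand. The 47 members with an entry had 61 windows, of which 2 (3.28%) held TAATTA and 46 (75.4%) held GGGCGG. None of the 35 windows of the higher members held TAATTA, and 25 held GGGCGG. A match of letters is not a measured site, and its absence from these windows says nothing of binding.

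The remaining A ephrins were both higher. Efna5, an A ephrin with a wide choice of EphA partners that also binds Ephb2, was the second ephrin of osteoblasts, with 18.2, 18.0 and 16.2 RPKM in osteoblasts and 2.52, 1.95 and 2.51 RPKM in chondrocytes. Its mean was 7.51-fold higher in osteoblasts with narrow spread (log2 difference 2.48, SE 0.11, limma adjusted p = 3.59e-06). Efna2, which in mouse osteoclasts acts through Epha2 towards osteoblasts, had 11.3, 9.76 and 9.69 RPKM in osteoblasts, against 2.01, 0.989 and 2.73 RPKM in chondrocytes (log2 difference 1.99, SE 0.22, limma adjusted p = 0.000195).

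Among the B ephrins, Efnb1 was the most abundant ephrin of osteoblasts. Loss of its human counterpart causes craniofrontonasal syndrome, in which a skull suture closes early. It had 39.5, 35.9 and 35.8 RPKM in osteoblasts and 7.42, 4.30 and 7.31 RPKM in chondrocytes, a 5.84-fold higher mean (log2 difference 2.40, SE 0.18, limma adjusted p = 3.57e-05). Efnb3, a midline barrier of the nervous system, had 8.496, 8.24 and 8.77 RPKM in osteoblasts and 0.508, 0.194 and 0.710 RPKM in chondrocytes, an 18.1-fold higher mean (log2 difference 2.71, SE 0.14, limma adjusted p = 7.72e-06). Neither gene overlapped between the groups. Efnb2, the B ephrin of arteries and osteoclasts, differed least, at 7.08 RPKM in osteoblasts, against 3.80 RPKM in chondrocytes (log2 difference 0.75, SE 0.16, limma adjusted p = 0.00448).

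**Figure D3:**
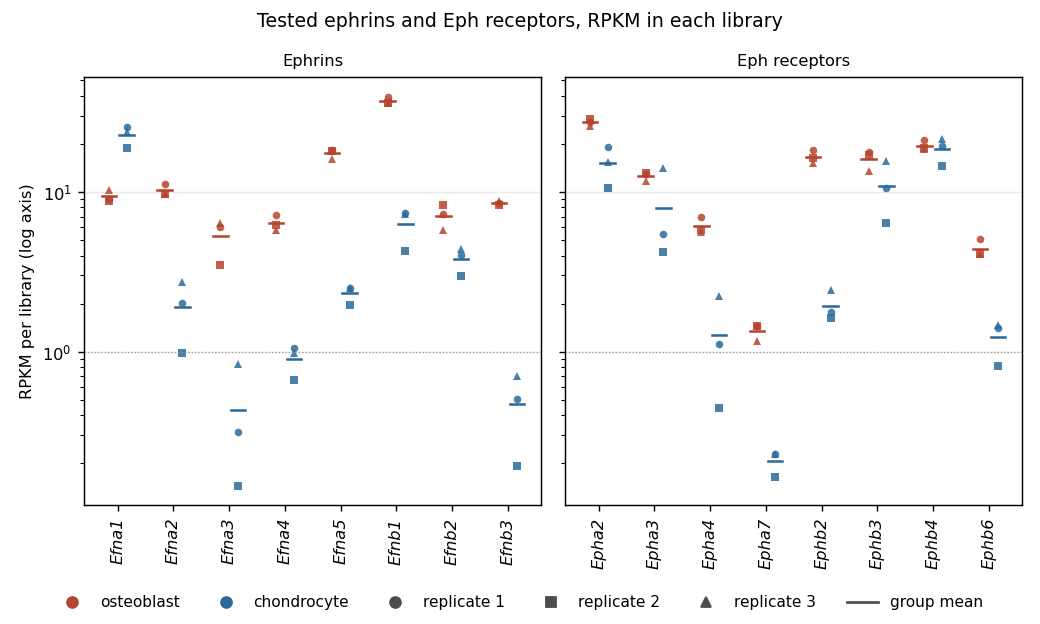
RPKM of ephrins and Eph receptors in each library on a log axis, osteoblast libraries left of chondrocyte libraries for each gene. Efna1 is the only ephrin lower in osteoblasts, and Ephb2 shows the largest log2 difference among the Eph receptors tested.

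Eph receptors ranged from genes abundant in both cell types to genes near 0 in both. Of the 14, 8 were tested, 5 were higher in osteoblasts (62.5%, near the 55.5% of all tested genes), 0 were lower and 3 were not called, and 6 were too low to test. The 5 include Epha7, whose direction was built in by the filter. The summed Eph receptor level was 105 ± 7.68 RPKM in osteoblasts and 57.5 ± 17.1 RPKM in chondrocytes (mean ± SD, n = 3 each). Ephb2, a receptor of the B ephrins, showed the widest difference, with 18.3, 16.3 and 15.1 RPKM in osteoblasts and 1.77, 1.62 and 2.45 RPKM in chondrocytes. Its mean was 8.52-fold higher (log2 difference 2.58, SE 0.13, limma adjusted p = 7.07e-06), and it formed 15.8% of summed Eph receptor RPKM in osteoblasts and 3.38% in chondrocytes. Epha4, which binds ephrins of both kinds, had 6.95, 5.75 and 5.64 RPKM in osteoblasts and 1.11, 0.446 and 2.25 RPKM in chondrocytes (log2 difference 1.72, SE 0.27, limma adjusted p = 0.00111). Ephb6, a receptor without kinase activity, had 5.04, 4.06 and 4.10 RPKM in osteoblasts and 1.41, 0.813 and 1.47 RPKM in chondrocytes (log2 difference 1.29, SE 0.15, limma adjusted p = 0.000252). In each of these receptors every osteoblast library was above every chondrocyte library.

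Other abundant receptors had smaller log2 differences than Ephb2. Epha2, the most abundant Eph receptor of osteoblasts, had 27.4, 28.6 and 26.0 RPKM there and 19.2, 10.6 and 15.5 RPKM in chondrocytes, a 1.81-fold higher mean (log2 difference 0.85, limma adjusted p = 0.00569) that missed the call under median-of-ratios scaling (limma adjusted p = 0.0698). Ephb4, the Efnb2 receptor of veins and osteoblasts, was the most abundant Eph receptor of chondrocytes, with 21.2, 18.7 and 18.6 RPKM in osteoblasts and 19.5, 14.5 and 21.3 RPKM in chondrocytes. The libraries overlapped, and the log2 difference of 0.09 had an interval of -0.26 to 0.44 (limma adjusted p = 0.601), while median-of-ratios scaling turned it to -0.39 (limma adjusted p = 0.0109), and it was also negative under quantile scaling, with equal totals and without chondrocyte replicate 2. Ephb3 averaged 16.1 RPKM in osteoblasts and 10.8 RPKM in chondrocytes (log2 difference 0.60, 95% interval -0.05 to 1.25), and Epha3 averaged 12.6 and 7.93 RPKM (0.76, -0.08 to 1.61). For both, chondrocyte replicate 3 lay within or above the osteoblast range, and without it the log2 differences were 0.88 for Ephb3 (limma adjusted p = 0.00729) and 1.22 for Epha3 (limma adjusted p = 0.000166). Epha7 was the lowest tested receptor, at 1.35 RPKM in osteoblasts, against 0.208 RPKM in chondrocytes (log2 difference 0.96, limma adjusted p = 9.84e-05).

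Known Eph pairs were likewise mixed in direction. Efna1 was lower in osteoblasts while its receptor Epha2 was higher there on the deposited scale. Efnb2 was higher in osteoblasts, and no difference in its receptor Ephb4 was detected. Efnb1 and Efnb3 were higher in the cells that also held more Ephb2 and Epha4, but the direction of Efnb3 was built in by the filter.

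**Figure D4:**
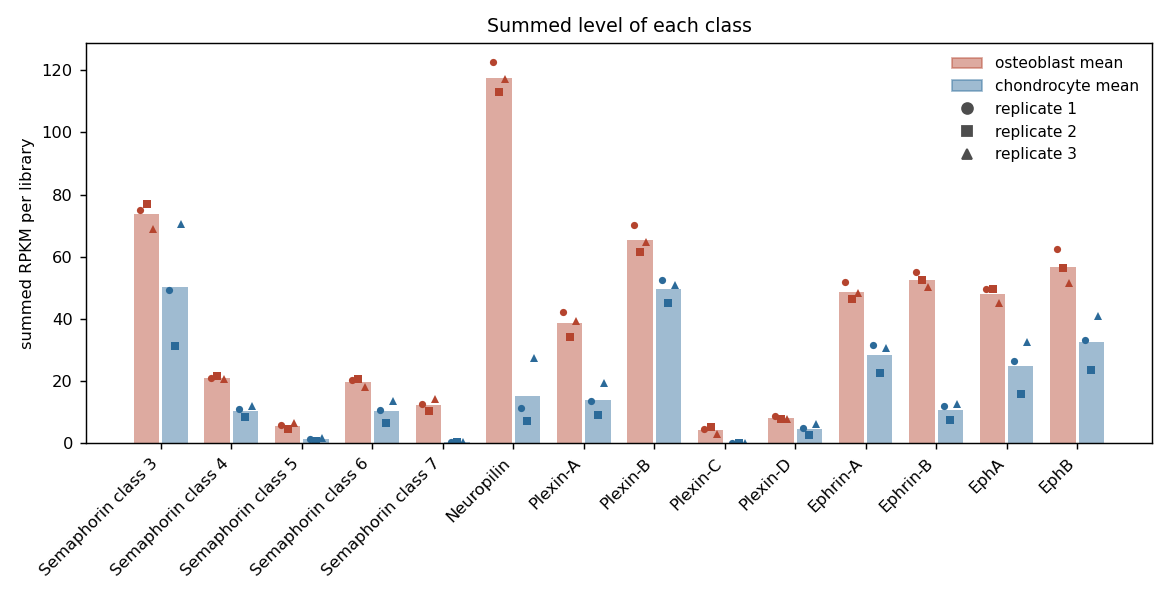
Summed RPKM of the neuropilins and of each semaphorin, plexin, ephrin and Eph receptor subclass in each library (points). Bars give the mean of 3 osteoblast libraries left of that of 3 chondrocyte libraries. Semaphorin class 7 and Plexin-C, of 1 gene each, show the largest ratios between the groups, 42.6 and 37.6. Plexin-B shows the smallest, 65.4 RPKM in osteoblasts against 49.5 RPKM in chondrocytes. Neuropilins have the highest osteoblast sum, 118 RPKM, against 15.2 RPKM in chondrocytes.

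Summed by role, ligands came to 234 ± 7.39 RPKM in osteoblasts and 111 ± 32.0 RPKM in chondrocytes, and receptors came to 339 ± 18.7 and 141 ± 36.9 RPKM (mean ± SD, n = 3 each). Among tested genes 18 of 24 ligands and 13 of 18 receptors were higher in osteoblasts (75.0% and 72.2%, against 55.5% of all tested genes). Lower were 3 ligands and 1 receptor (12.5% and 5.56%, against 13.5%). These counts include the members whose direction was built in by the filter. The ratio of osteoblast to chondrocyte sums was 2.10 for ligands and 2.41 for receptors.

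The 11 members that were too low to test averaged under 1 RPKM in both groups. They were 6 Eph receptors (Epha1, Epha5, Epha6, Epha8, Epha10 and Ephb1), 4 semaphorins (Sema3g, Sema4a, Sema5b and Sema6b) and Plxnb3, the Sema5a receptor. The highest was Sema4a, at 0.935 ± 0.0851 RPKM in osteoblasts, against 0.499 ± 0.0590 RPKM in chondrocytes (mean ± SD, n = 3 each). Osteoblast libraries were all above chondrocyte libraries for Sema4a, Epha5, Epha8 and Plxnb3, chondrocyte libraries were all above for Epha1, and the other 6 overlapped. Of all 23364 genes, tested or not, osteoblast libraries were all above for 8618, chondrocyte libraries for 2499, and 12247 overlapped. Plxnb3 was at 0.0282 RPKM in osteoblasts, against 0.00482 RPKM in chondrocytes, although its ligand Sema5a was measurable in both.

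Of the 53 members, 37 had 1 transcript in the table and 16 had several. The sources used here do not say how reads were divided between transcripts of a gene, so shares are described without a test. Sema3b had the plainest shift. Its transcript NM_001042779 took 22.6%, 20.5% and 23.8% of Sema3b RPKM in osteoblasts and 83.6%, 35.9% and 84.8% in chondrocytes, where replicate 2 stood apart from the other two. Transcript NM_009153 had 20.04, 23.8 and 18.5 RPKM in osteoblasts and 2.40, 2.54 and 2.63 RPKM in chondrocytes, so the spread of Sema3b between chondrocyte libraries lay in NM_001042779 and not in this line. For Efna5, NM_010109 took 31.2%, 30.4% and 29.0% in osteoblasts, against 5.61%, 4.95% and 22.5% in chondrocytes. The 6 transcripts of Nrp2 kept similar shares, the largest being NM_001077404 with 38.8% in osteoblasts and 46.8% in chondrocytes.

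**Figure D5:**
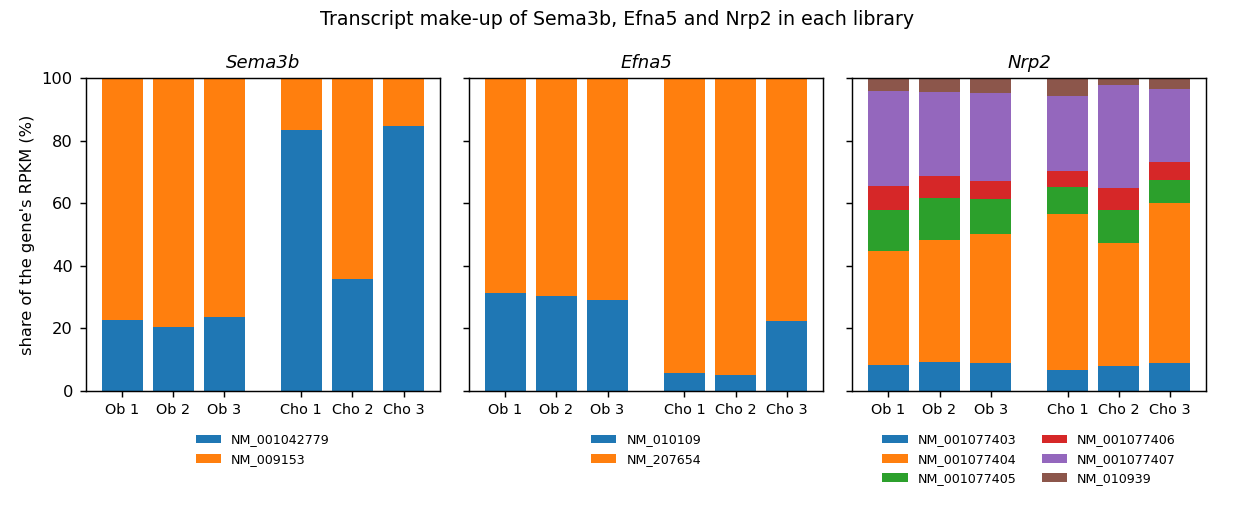
Share of each transcript in the summed RPKM of Sema3b, Efna5 and Nrp2 in each library, in percent, with osteoblast libraries left of chondrocyte libraries. Sema3b NM_001042779 takes 20.5% to 23.8% in osteoblasts and 35.9% to 84.8% in chondrocytes.

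Cytoplasmic partners of the receptors were read from lists. Of 39 genes known to act with plexins or neuropilins, 32 were tested, of which 24 were higher in osteoblasts and 4 were lower, with a median log2 difference of 0.70. These were 75.0% and 12.5% of the tested genes, against 55.5% and 13.5% of all tested genes. Under median-of-ratios scaling 16 were higher and 7 lower, where 30.4% and 30.9% of all tested genes were. The widest differences were in Mical2, an actin-oxidising enzyme, at 8.41 ± 1.08 RPKM in osteoblasts, against 0.0905 ± 0.0454 RPKM in chondrocytes (log2 difference 3.10), and in Fyn, a Src-family kinase used by several of these receptors, at 23.8 ± 0.997 and 2.95 ± 0.485 RPKM (mean ± SD, n = 3 each; log2 difference 2.66). Farp2, an exchange factor bound to A plexins, and Limk1, a kinase of cofilin, followed with log2 differences of 2.09 and 2.08. Of the 24 higher genes, Mical2 met the expression filter through the osteoblast libraries alone, so its direction was built in by the filter. The 4 lower genes were Farp1, Rnd2, Rap1a and Rock1, with log2 differences of -1.18, -1.05, -0.26 and -0.31.

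Of 35 partners of Eph receptors and ephrins, 30 were tested, 17 were higher in osteoblasts and 7 were lower, with a median log2 difference of 0.51. The higher share of 56.7% was near the 55.5% of all tested genes, and the lower share was 23.3% against 13.5%; under median-of-ratios scaling 8 were higher and 10 lower, where 30.4% and 30.9% of all tested genes were. Adam10, the protease that cuts ephrins and Eph receptors from the surface, averaged 19.8 ± 1.17 RPKM in osteoblasts and 2.79 ± 0.745 RPKM in chondrocytes (mean ± SD, n = 3 each; log2 difference 2.48, limma adjusted p = 1.21e-05). The Rac-inactivating chimaerins Chn2 and Chn1 and the exchange factor Vav2 followed, with log2 differences of 2.24, 1.82 and 1.71. Of the 17 higher genes, Chn2, Chn1 and Kalrn met the expression filter through the osteoblast libraries alone, so their direction was built in. In the opposite direction Ngef, the exchange factor also called ephexin, averaged 2.19 RPKM in osteoblasts and 5.71 RPKM in chondrocytes (log2 difference -1.06).

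Among 24 genes of the other guidance families, Slit and Robo, netrins and their receptors and the repulsive guidance molecules, 16 were tested, 10 were higher in osteoblasts and 2 were lower. These shares of 62.5% and 12.5% were near the 55.5% and 13.5% of all tested genes. Under median-of-ratios scaling 8 were higher and 5 lower, where 30.4% and 30.9% of all tested genes were. Slit3, a secreted Robo ligand, had 46.0, 38.3 and 38.8 RPKM in osteoblasts and 0.422, 0.523 and 1.32 RPKM in chondrocytes (log2 difference 4.61), a wider difference than that of any semaphorin or ephrin tested. Unc5b, Robo2 and Slit2 followed with log2 differences of 2.48, 2.28 and 2.13. Of the 10 higher genes, the netrins Ntn4 and Ntn5 met the expression filter through the osteoblast libraries alone, so their direction was built in. The lower genes were the netrin receptor Unc5c and Rgma, at log2 differences of -1.16 and -1.21.

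Genes of other cell types that could accompany either preparation differed in both directions. Pericyte and smooth muscle genes summed to between 64.3 and 77.5 RPKM in osteoblast libraries and between 72.5 and 113 RPKM in chondrocyte libraries. Of 6 tested genes, 4 were higher in osteoblasts and 1, Cspg4, was lower (66.7% and 16.7%, against 55.5% and 13.5% of all tested genes). Cspg4 made up most of the chondrocyte sums, at 77.5, 111 and 68.7 RPKM, against 37.1, 27.5 and 31.2 RPKM in osteoblasts. Of all 8 genes, 5 had every osteoblast library above every chondrocyte library, 1 the reverse, and 2 overlapped. The same counts over all 23364 genes were 8618, 2499 and 12247. Actg2 and Cnn1 averaged 17.4 and 4.85 RPKM in osteoblasts and 0.0528 and 0.0393 RPKM in chondrocytes. Actg2, Cnn1 and Kcnj8, all higher, met the expression filter through the osteoblast libraries alone. Tendon and perichondrium genes summed to between 2780 and 4143 RPKM in osteoblast libraries and between 1443 and 5024 RPKM in chondrocyte libraries, with chondrocyte replicate 3 the highest. Their part in the member values was not tested.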

How the data were processed

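RNA-seq of 3 osteoblast and 3 chondrocyte libraries was analysed. The authors deposited RPKM per RefSeq transcript with 1 column per library; per the submitters' processing notes TopHat2 2.0.8 and build mm9 were used, while no source used here names the counting program. A constant of 0.0001 is part of every deposited value. Transcripts sharing a symbol had their RPKM added. Genes with at least 1 RPKM in at least 3 libraries (11218) were tested with limma (version 3.58.1, R version 4.3.3) on log2(RPKM + 1), with trend and robust moderation, two-sided, no covariate, Benjamini-Hochberg adjustment over all tested genes, called under 0.05. The procedure was tested on simulated data. Read depth was estimated from low values and GENCODE M21 transcript lengths, because no counts were given; 58.9% to 60.7% of values under 20 reads fell within 0.05 of a whole number. Every member averaging 1 RPKM in either group is named; all 6 values are given for called members with an absolute log2 difference of at least 1 and the most abundant members of each class, and up to 4 genes per effector list. Members, lists and markers were chosen with earlier results of these data known. Promoters come from RefSeq (GRCm38.p6), which matched 47 of the 53 members. Alternatives covered pseudocounts, filters, scalings, moderation, the replicate block, single transcripts and each library left out.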

Additional observations from a re-analysis of the deposited data

How the results depend on the processing

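The count of higher members was 31 and that of lower members 4. Leaving out 1 library at a time gave 27 to 35 higher and 4 to 4 lower members, and 5300 to 6319 higher and 1206 to 1898 lower genes over the whole table, where all libraries gave 6224 and 1512. Requiring a mean of 5 RPKM left 22 members for testing and called 15 higher and 3 lower. Of the 6911 genes tested that way it called 4092 higher and 885 lower (59.2% and 12.8%). Median-of-ratios scaling gave 3413 higher and 3471 lower genes, and quantile normalization 3597 and 3456, since both centre the typical gene; each left 26 members higher and 5 lower. 3 uncalled members changed sign. Ephb4 was at -0.39 with median-of-ratios, -0.33 with quantile (limma adjusted p = 0.0256), -0.062 with equal totals, and -0.063 to 0.20 over the fits that left out 1 library. Sema4c was at -0.21 with median-of-ratios and -0.17 with quantile. Sema6a was at -0.28 with median-of-ratios, -0.27 with quantile, -0.0043 with equal totals, and -0.020 to 0.22 over the fits that left out 1 library. Without a filter 27 members were higher, 24 of them among the 31, and 3 lower; the cause was not tested.

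Same-numbered libraries did not deviate together (correlations 0.0791, 0.00964 and -0.155). This cannot show whether they were prepared as pairs, since pairs need not deviate together, and the labels do not give pairing. With the replicate block 32 members were higher and 4 lower, Plxna3 being gained (limma adjusted p = 0.0275). Of all tested genes, 52.5% were then called higher and 12.3% lower. At 54.0 to 71.9 reads per RPKM in a 2 kb transcript, the members under 0.1 RPKM rest on a few reads.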
